A study of Homo sapiens with 6 samples.

Results

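The ER membrane protein complex (EMC) places transmembrane segments of newly made proteins into the membrane of the endoplasmic reticulum (ER), above all weakly hydrophobic segments, tail anchors and the first segment of many receptors. EMC3 and EMC6 line the insertion route with the help of MMGT1, also called EMC5. EMC2 and either EMC8 or its paralogue EMC9 form the cytosolic part, and EMC1, EMC4, EMC7 and EMC10 make up most of the part that faces the ER lumen. The transcripts of these 10 subunits were described in LX-2 cells, an established human line of activated hepatic stellate cells, which deposit scar matrix in injured liver. The 10 genes were taken by symbol from the 60669 genes of the deposited table, and each was found once. The complex was chosen by the siADAMTS12 and siCTL values of EMC10, whose transcript was strongly higher with siADAMTS12, so those values are given as a description without a test. The other 9 subunits were taken for their place in the complex, and the question was whether they follow EMC10.

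All 6 libraries came from LX-2 cells labelled as wild type in genotype. In 3 of them the cells had received a negative control siRNA (siCTL), and in the other 3 an siRNA against ADAMTS12 (siADAMTS12), a secreted metalloprotease. Cells were collected 48 h after lipid transfection. The design used a single cell line and a single ADAMTS12 siRNA sequence, the control sequence is not in the sources used here, and the labels do not say whether replicates were separate cultures. The p-values below therefore rest on library-to-library spread, which may be technical. Levels are normalized counts, and ADAMTS12 itself went from 12235 to 13709 in the siCTL libraries to 3449 to 4083 with siADAMTS12. COL1A1, COL1A2, VIM and THY1 were abundant in every library, LRAT, the enzyme of retinoid storage, was listed at 0, and the summed hepatocyte markers did not exceed 2. Summed stellate or fibroblast markers lay between 342799 and 383054 in siCTL and between 264928 and 282947 with siADAMTS12 (3 of 7 tested fell: PDGFRB, THY1 and VIM; the call of VIM ended after quantile normalization, at -0.26 with limma adjusted p = 0.0561), and their part in the results below was not tested. Summed cholangiocyte markers, nearly all KRT7, were at 282 to 298 and 233 to 261, endothelial markers at 28 to 39 and 15 to 24, and immune markers at 5 to 14 and 4 to 8.

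The sequences needed to read the complex against this siRNA are shown first, because a guide strand can also pair through its bases 2 to 8, the seed, with other transcripts. The capitals mark the seed in the guide and the letters that pair with it in the sense strand and in 3' UTR sites of 3 subunits.
siADAMTS12 sense strand: gccaaaguuugGAGGGAAa
siADAMTS12 guide strand: uUUCCCUCcaaacuuuggc
EMC1 site: caagctactggGAGGGAAggtatttgtcc
EMC8 site: tagggaattgaGAGGGAAactttatggta
EMC10 site: ggtccagagagGAGGGAAaggaaaggaca
The guide was written as the complement of the sense strand given in the labels, and the sites come from GENCODE 29 transcripts on GRCh38. For EMC1 this is chr1:19217585-19217613 (minus strand), in exon 23 of 23 of the longest coding transcript. For EMC8 it is chr16:85778838-85778866 (minus strand), in exon 5 of 5 of the transcript searched. The EMC10 site shown is 1 of 6, at chr19:50487790-50487818 (plus strand), in exon 7 of 7. The EMC8 site and this EMC10 site are followed by an A, which makes the longer kind of seed match. None of 2370 mature human microRNA names in the RefSeq table shared these bases 2 to 8.

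EMC10 was the only subunit that stood higher in all siADAMTS12 libraries. In siCTL the 3 libraries had normalized counts of 1482, 1527 and 1387, and with siADAMTS12 they had 4837, 5199 and 4816. Every siADAMTS12 library stood above every siCTL library, as in 19.2% of all genes tested, and nothing is read from that share because EMC10 was chosen for it. The mean went from 1465 ± 71.5 to 4951 ± 215 (SD, n = 3), 3.38-fold, a log2 fold change of 1.76 ± 0.06 (SE). By fold it ranked 10 among the 1798 genes that rose. EMC10 is a lumenal subunit at the edge of the complex, and alternative splicing is known to give a membrane-anchored and a secreted form of it. The deposited values are per gene and do not tell these forms apart. In bulk libraries, a change in RNA per cell and a change in the number of cells of a type cannot be told apart.

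Of the other 9 subunits, 0 rose, 1 fell and 8 did not pass the test (limma on log2 of the normalized count + 1, adjusted p below 0.05 by Benjamini-Hochberg over 15637 genes). At an unadjusted p of 0.05 the counts were the same, but the share of all genes at that threshold was not counted. The background for the counts by adjusted p is that 11.5% of all genes tested rose and 15.5% fell, 27.0% in either direction. The median log2 fold change of the 9 was -0.07, against 0.005 over all genes tested. All 10 subunits passed the filter on low values, a mean of at least 10. The groups did not overlap for 1 of the 9, EMC1, where siADAMTS12 was lower, against 21.7% of all genes tested with siADAMTS12 lower and 40.9% in either direction.

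**Figure D1:**
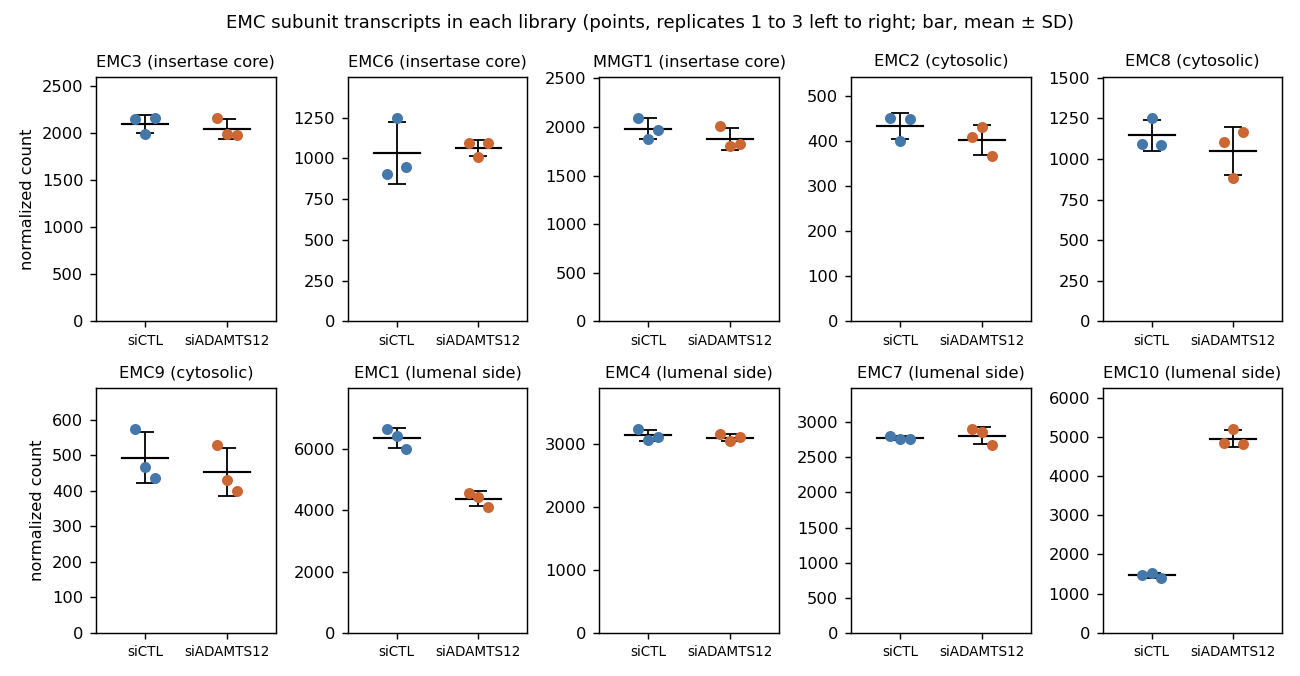
Normalized count of each EMC subunit (y axis, from 0) in the 3 siCTL and 3 siADAMTS12 libraries; points are libraries and bars the mean ± SD. EMC10 goes from 1387 to 1527 up to 4816 to 5199, EMC1 goes from 5992 to 6644 down to 4119 to 4578, and the groups overlap for the other 8 subunits.

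The insertase core did not follow EMC10. EMC3, a member of the Oxa1 family of insertases, was at 2146, 1988 and 2155 in the siCTL libraries and at 2158, 1985 and 1975 with siADAMTS12. EMC6, its partner in the membrane, was at 901, 1248 and 946 and then at 1094, 1008 and 1091, with the highest value in siCTL replicate 2. MMGT1 was at 2095, 1881 and 1967 and then at 2013, 1808 and 1824. The groups overlapped for all 3 genes. Their log2 fold changes were -0.04 (95% interval -0.18 to 0.10), 0.06 (-0.18 to 0.30) and -0.07 (-0.23 to 0.08), with limma adjusted p of 0.7, 0.739 and 0.468. These intervals allow a rise of at most 1.23-fold, in EMC6, where EMC10 was 3.38-fold higher.

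The cytosolic subunits were low in level and likewise overlapped between the groups. EMC2, the scaffold on which the cytosolic part is built, was at 451, 400 and 449 in siCTL and at 409, 431 and 367 with siADAMTS12. EMC8 was at 1095, 1253 and 1088 and then at 1105, 881 and 1163. EMC9, which takes the same place as EMC8 in the complex, was at 573, 468 and 437 and then at 528, 430 and 398. Their log2 fold changes were -0.11 (95% interval -0.32 to 0.10), -0.13 (-0.36 to 0.10) and -0.13 (-0.40 to 0.15), with limma adjusted p of 0.446, 0.382 and 0.511. Intervals this wide leave room for a fall to 0.756 of the siCTL level in EMC9 and to 0.778 in EMC8. They come from the fit without pairing. Libraries with the same replicate number were lower with siADAMTS12 in 3 of 3 pairs for EMC9, as also for EMC1, EMC4 and MMGT1. The share of all genes with such a pattern was not counted. In EMC4 the pair of replicate 3 was at 3118 and 3116. The pattern depends on the scaling. After division by column sums the log2 fold changes were -0.413 for EMC1, -0.000 for EMC9, 0.050 for MMGT1 and 0.108 for EMC4. With the replicate block the limma adjusted p of EMC9 was 0.209. The ratio of EMC8 to EMC9 counts was 2.36 ± 0.4 in siCTL and 2.35 ± 0.49 with siADAMTS12 (SD, n = 3; exact 2-sided permutation p = 1.0), and single libraries ranged from 1.91 to 2.92.

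EMC1 was the subunit that fell. EMC1 is the largest subunit, with a lumenal part built of beta propellers that holds the complex together. The siCTL libraries had 6644, 6430 and 5992, and the siADAMTS12 libraries 4578, 4440 and 4119, so that every siADAMTS12 library lay below every siCTL library. The mean went from 6355 ± 332 to 4379 ± 236 (SD, n = 3), which left 68.9% of it, a log2 fold change of -0.54 ± 0.07 (SE; 95% interval -0.68 to -0.40; limma adjusted p = 0.000106). An exact permutation test gave p = 0.1, the smallest that 3 against 3 libraries allow. EMC1 was a modest fall in this experiment, at rank 947 of 2424 by size. Among the other lumenal subunits, EMC4 was at 3238, 3071 and 3118 and then at 3156, 3046 and 3116, and EMC7 at 2810, 2769 and 2760 and then at 2902, 2861 and 2671. These were the steadiest of the 10 genes, with log2 fold changes of -0.02 (95% interval -0.14 to 0.11; limma adjusted p = 0.866) and 0.02 (-0.11 to 0.14; adjusted p = 0.882).

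**Figure D2:**
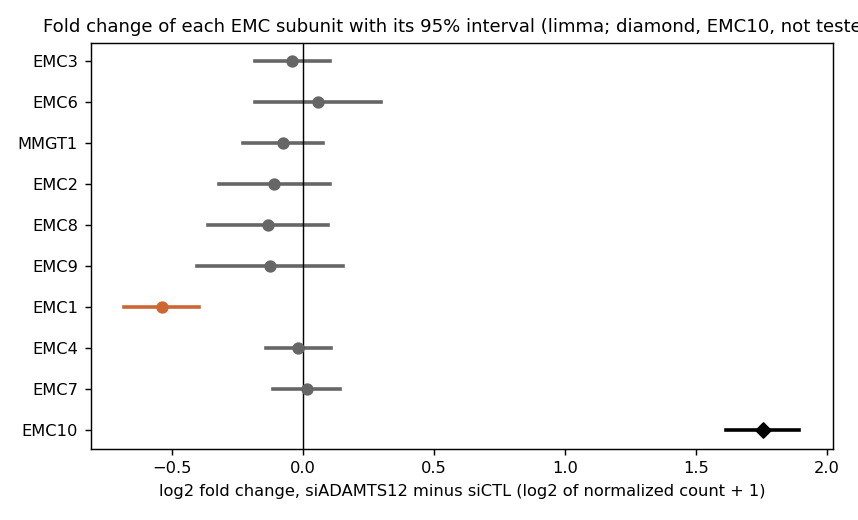
Log2 fold change (x axis, siADAMTS12 minus siCTL, log2 of the normalized count + 1) of each EMC subunit, with its 95% interval from limma; orange is past the threshold, grey is not, and the black diamond is EMC10, which was chosen for its rise. The intervals of 8 subunits cross 0, EMC1 lies at -0.54 and EMC10 at 1.76.

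The balance of transcripts inside the complex changed through these 2 genes. EMC10 stood at 0.707, 0.812 and 0.705 of the median count of the other 9 subunits across the siCTL libraries, and at 2.4, 2.88 and 2.64 across the siADAMTS12 libraries. Against EMC1 alone, EMC10 went from 0.231 ± 0.0072 to 1.13 ± 0.066 (SD, n = 3), so that the gene with fewer counts became the one with more. This crossing is of counts, not scaled by length. With siADAMTS12, EMC10 and EMC1 stood at 461 and 455 per kb by the union of exons. By the transcript searched per gene they stood at 524 and 657, and by the median coding transcript at 3075 and 1072. EMC1 went from 4.06 ± 0.13 to 2.95 ± 0.2 of the median of the other 8 subunits without EMC10 (exact 2-sided permutation p = 0.1), and the groups did not overlap. The summed counts of the 8 subunits without EMC10 and EMC1 were 13102 ± 196 in siCTL and 12807 ± 490 with siADAMTS12 (exact 2-sided permutation p = 0.4), a difference within the spread of the siADAMTS12 libraries.

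Levels can be compared between genes only per length of transcript. With the union of annotated exons as the length, the mean siCTL level per kb of transcript was highest for EMC7 (1807 ± 17.3, SD, n = 3), then EMC6 (1342 ± 245), EMC4 (705 ± 19.3), EMC1 (660 ± 34.5), MMGT1 (530.0 ± 28.8) and EMC3 (491 ± 22). Below them came EMC9 (310.2 ± 44.9), EMC8 (285 ± 23.2), EMC10 (136 ± 6.65) and EMC2 (115 ± 7.64). The ranges over the 3 siCTL libraries overlapped between EMC4 and EMC1, between MMGT1 and EMC3, and between EMC9 and EMC8, so the order within these pairs is not resolved. With siADAMTS12, EMC10 reached 461 ± 20.03 per kb and the sixth place in this order. EMC3 was then at 478 ± 24.1 and EMC1 at 455 ± 24.5, so the order of EMC3, EMC10 and EMC1 is not resolved. The order depends on the length used. By union of exons, by the transcript searched per gene and by the median coding transcript, MMGT1 ranked 5, 8 and 10 in siCTL. On the same lengths EMC3 ranked 6, 5 and 3, EMC2 10, 9 and 7, and EMC9 7, 6 and 9. EMC7 (1, 2 and 1), EMC4 (3, 1 and 2) and EMC1 (4, 4 and 5) moved less. The median coding transcript had 751 bases for EMC3, 533 for EMC2 and 581 for EMC7. The coding part of the transcript searched was longer, at 786, 894 and 729 bases, so ranks by this median are the least sure. The place of EMC10 moved as well, because its annotated transcripts differ greatly in length. By the median length of its annotated coding transcripts, it went from 910.1 ± 44.4 to 3075 ± 134 per kb, from rank 6 to rank 3.

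EMC10 has a long and a short 3' end in the annotation, and the siRNA matches lie only in the long one. The gene (ENSG00000161671) spans chr19:50476400-50490870 on the plus strand. The coding transcript searched, EMC10-201, has 7 exons and a 3' UTR of 8611 bases, against a median of 1141 bases over the 12694 genes whose 3' UTR was searched. It holds the 7 letters GAGGGAA at 6 places on the transcribed strand, from position 4813 to position 6770 of the 3' UTR. The other 7 annotated transcripts of EMC10 end by 50483351 and hold the 7 letters nowhere. The second coding transcript, EMC10-202, has a 3' UTR of 1203 bases. Which of these 3' ends LX-2 cells use was not analysed here, since the table has 1 value per gene.

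**Figure D3:**
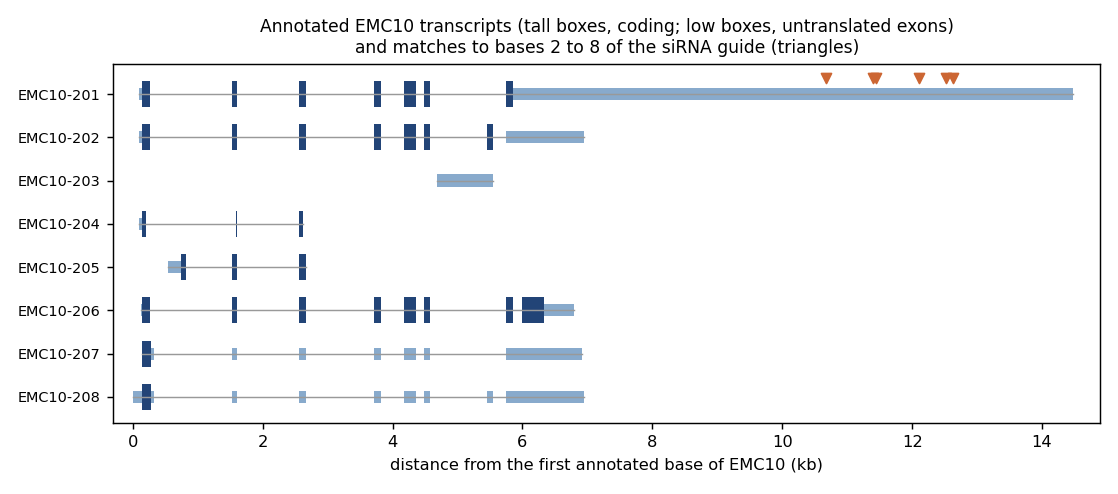
The 8 annotated transcripts of EMC10, drawn to scale as distance from the first annotated base (x axis, kb); tall boxes are coding, low boxes untranslated exons, lines introns, and triangles the 6 matches to bases 2 to 8 of the siRNA guide. The triangles lie in the last exon of EMC10-201, beyond the end of the other 7 transcripts.

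The 3 subunits with a seed match differed in direction. GAGGGAA was found in the chosen 3' UTR of 3 of the 10 subunits, EMC1, EMC8 and EMC10, and in 15.7% of the 12694 genes searched. It was in 10.9% of the genes that rose, 30.9% of those that fell and 54.2% of those that fell at least 2-fold. The 3' UTRs differed in median length, at 1294.5, 1668.5 and 1808 bases in these groups and 1141 over all genes searched. The shares were not adjusted for length. EMC1 fell, EMC8 did not pass the test, and EMC10 stood at 3.38 times its siCTL mean. In EMC1 the match lies at position 1701 of a 3' UTR of 3639 bases in the longest coding transcript, and is also in the shorter EMC1-201. It is not in EMC1-202, whose 3' UTR has 1155 bases. EMC3 and MMGT1 held only the shorter match to bases 2 to 7, AGGGAA, which the 7 letters contain. In EMC6 the 7 letters lie in the 5' UTR of both annotated transcripts. The seed match of the other siRNA strand, ACTTTGG, was in the 3' UTR of EMC1 and EMC10 and in 21.6% of the genes searched. It was in 22.3% of the genes that rose, 26.4% of those that fell and 25.6% of those that fell at least 2-fold. A match is a description of the sequence, and pairing at these places was not tested.

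The genes beside EMC10 did not rise with it. FAM71E1 starts head to head with EMC10 on the other strand and shares 324 exonic bases with it, and it stayed between 2 and 11 in the 6 libraries. The antisense genes AC020909.3 and AC020909.2, whose exons overlap those of EMC10, did not exceed 1. On the far side, JOSD2, a deubiquitinase, was at 608, 714 and 498 in siCTL and at 584, 529 and 644 with siADAMTS12 (log2 fold change -0.04, limma adjusted p = 0.854). MYBPC2 and ASPDH were listed at 0, SPIB did not exceed 16, and LRRC4B lay between 9 and 34. No gene overlapping EMC10 exceeded 11 in any library.

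Genes overlapping EMC3 and EMC8 rose while the subunit itself did not pass the test. EMC3-AS1 lies on the other strand, starts inside the span of the transcript EMC3-201 and shares 228 exonic bases with EMC3. EMC3-AS1 was at 506, 498 and 544 in siCTL and at 775, 811 and 858 with siADAMTS12. This was a rise with a log2 fold change of 0.66 ± 0.08 (SE; limma adjusted p = 9.61e-05). COX4I1, a subunit of cytochrome c oxidase that shares a start region and 4 exonic bases with EMC8, rose from 4461 ± 107 to 5382 ± 110 (0.27 ± 0.06; limma adjusted p = 0.0038). The library kit keeps strand, but the strand setting of the counting is not given in the sources used here. How reads in the shared bases were counted is therefore not known.

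The genes whose pattern over the 6 libraries was most like that of EMC10 were ISOC1, MLLT11, RIOX1, LRRC3 and ZNF584. Their log2 levels correlated with that of EMC10 at 0.99963, 0.99929, 0.99923, 0.99864 and 0.99803 (Pearson, 6 libraries, genes with a mean of at least 50). The 6 points share the contrast between the groups, and 87 of the 12696 genes compared lay above 0.99. None of these 5 changed by as large a fold as EMC10. Nothing is read from that, because EMC10 was chosen for its rise and a correlation takes no account of fold size. ISOC1 had the largest fold change among them, from 322 ± 11.3 to 721 ± 12.0, 2.24-fold, and ZNF584 the smallest, 1.32-fold.

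The counts of the other ER gene lists are to be read against the 15.5% of all genes tested that fell and the 11.5% that rose. Of 18 genes of the signal recognition particle (SRP), the Sec61 channel and its TRAP partner, 8 fell (44.4%) and 0 rose, with a median log2 fold change of -0.13. After division by column sums, 5 fell and 1 rose, where 1543 of all 15637 genes tested fell and 3873 rose. SRP19, a protein of the particle, was at 591, 536 and 562 and then at 287, 242 and 343 (-0.97 ± 0.12; limma adjusted p = 0.000142). SEC62, which helps post-translational import through Sec61, went from 3978 ± 94.4 to 2635 ± 70.8, and SRP72 from 5871 ± 277 to 4195 ± 114. SRP19 and SEC62 were the only 2 of these 18 genes with the guide 7-mer in the 3' UTR, so 2 of the 8 that fell held it. Over all genes, 15.7% of those searched and 30.9% of those that fell held it.

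In the GET pathway, which delivers tail-anchored proteins and so overlaps the EMC in substrates, 2 of 7 genes rose (28.6%) and 0 fell (median 0.06). GET3, the targeting ATPase, went from 3501 ± 96.7 to 4029 ± 69.4 (log2 fold change 0.20, limma adjusted p = 0.019). GET4, part of the complex that hands substrates to GET3, was low and uneven, at 78, 75 and 51 and then at 126, 85 and 215. Both calls ended when any of 3 libraries was left out, siADAMTS12 replicate 3 or siCTL replicate 2 or 3, where 0 of the 7 rose. Of 8 tested genes of the multipass translocon, which inserts proteins with many membrane spans, 3 fell (37.5%) and 0 rose (median -0.13). These were CCDC47, NOMO1 and NOMO3 (log2 fold changes -0.19, -0.22 and -0.26). NOMO1 and NOMO3 are near-identical copies whose reads may be split. The count was 0 without siCTL replicate 3 or siADAMTS12 replicate 3, and 1 without siCTL replicate 1 or siADAMTS12 replicate 1 or 2.

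Of 17 genes of oligosaccharyltransferase and signal peptidase, the enzymes that glycosylate and trim proteins at the translocon, 3 fell and 0 rose (median -0.11), and the 17.6% that fell was near the 15.5% of all genes tested. With the replicate number as a block, 6 fell, where 3059 of all 15637 genes tested fell in place of 2424. SPCS3, a signal peptidase subunit, went from 6698 ± 397 to 4675 ± 125 and STT3B, a catalytic subunit, from 12021 ± 726 to 9823 ± 254. STT3A, the other catalytic subunit, went from 6168 ± 299 to 5405 ± 82.0. The call of STT3A ended without siCTL replicate 1 or 3 or any siADAMTS12 library, and after quantile normalization or division by column sums, which also ended that of STT3B. Of 16 genes of ER-associated degradation, which removes proteins that fail to fold or insert, 7 fell (43.8%) and 1 rose (6.25%; median -0.15), and 0 rose without siCTL replicate 1 or siADAMTS12 replicate 3. FAF2, which recruits the extracting ATPase to the ER membrane, was at 3725, 3588 and 3742 and then at 1449, 1458 and 1468 (-1.34 ± 0.06; limma adjusted p = 5e-08), and it carried the guide 7-mer. UBE2J1, a ubiquitin conjugating enzyme of the ER, went from 4830 ± 58.7 to 2762 ± 206, and SEL1L, the scaffold of the ER ubiquitin ligase HRD1, from 4274 ± 241 to 3276 ± 33.9. Of 13 genes of the ER stress response, 9 fell (69.2%) and 0 rose (median -0.40), HSP90B1, HYOU1 and CALR among them. HSP90B1 and DNAJC3, 2 of the 9 that fell, held the guide 7-mer. In the degradation list 1 of the 7 genes that fell held it. Among the genes that fell, it was in 0 of 3 of the multipass list. It was likewise in 0 of 3 that fell in the list of oligosaccharyltransferase and signal peptidase. No difference between these lists and the EMC was tested.

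**Figure D4:**
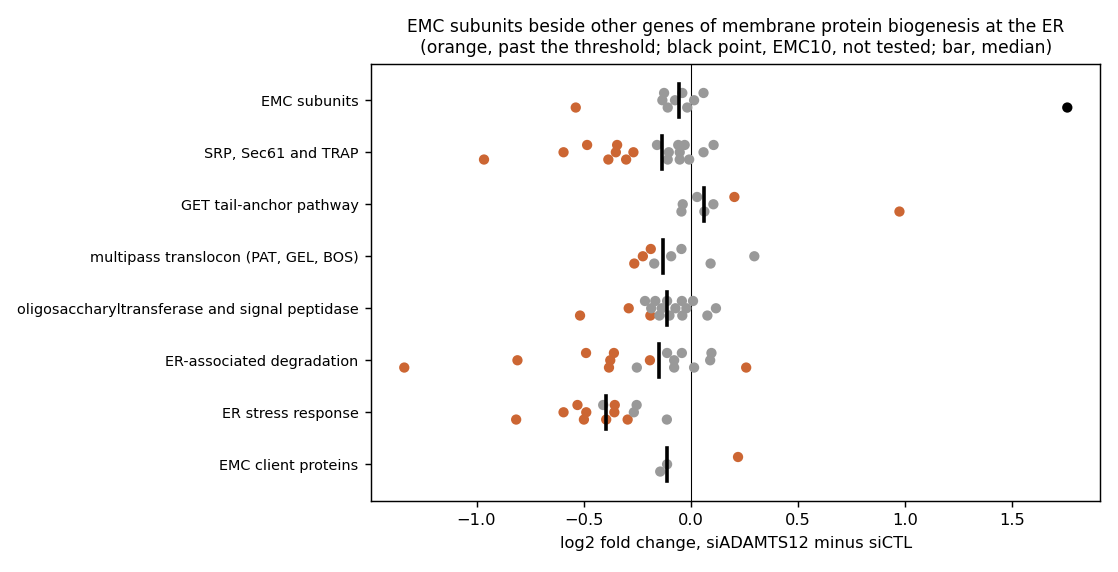
Log2 fold change (x axis, siADAMTS12 minus siCTL) of the tested genes of the EMC and of 7 other gene lists; orange points passed the threshold, grey points did not, the black point is EMC10 and black bars are list medians. EMC10 is the rightmost point of the plot at 1.76, and the lowest list median is that of the ER stress response at -0.40.

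Transcripts of proteins known to need the EMC for insertion changed little. Squalene synthase (FDFT1) was at 2285, 2170 and 2246 and then at 2252, 2067 and 1901, and the sterol acyltransferase SOAT1 at 5430, 4725 and 4902 and then at 5020, 4323 and 4308. SOAT1 held the guide 7-mer in its 3' UTR. The groups overlapped for both, and neither passed the test without the replicate block, while with it 1 of the 3 tested client genes fell. With the block, 3059 of all 15637 genes tested fell. TMEM97, the sigma-2 receptor, rose from 2703 ± 107 to 3146 ± 59.3 (log2 fold change 0.22, limma adjusted p = 0.0161). This call ended without siCTL replicate 3 (0.0662) or siADAMTS12 replicate 3 (0.0519), and its alternatives ran from 0.00129 to 0.0662. The receptor gene ADRB1, another client, was between 3 and 9 in all libraries and was not tested. The insertion of these proteins was not measured.

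The sums of the deposited values were 33576945 to 34072515 in siCTL and 30678468 to 31415206 with siADAMTS12. When each column was divided by its sum, the median log2 fold change of all genes moved from 0.005 to 0.129, and 3873 genes rose and 1543 fell in place of 1798 and 2424. The split was 2175 and 2078 after quantile normalization. EMC10 was then at 1.88 (division by sums), EMC1 at -0.41 (limma adjusted p = 0.000883), and the other 8 subunits still did not pass. Over all 14 alternatives the adjusted p of EMC1 lay between 2.37e-05 and 0.00624, the highest being that without the intensity trend (log2 fold change -0.54). The share of counts from mitochondrially encoded genes was 2.48 to 3.38% in siCTL and 2.29 to 3.3% with siADAMTS12.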

How the data were processed

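Per the labels' protocols, RNA with integrity numbers of 9.2 to 9.9 was made into stranded poly(A) libraries from 500 ng. STAR, HTSeq and DESeq2 with the GRCh38 build are listed, without versions, in the submitters' processing notes. The sources used here do not give the annotation behind the counts. The table deposited by the authors holds a score, whole-number normalized counts as its file name says. Its columns sum to 30678468 to 34072515. For siCTL replicate 3, 9 of the integers 1 to 40 are unused, and for siADAMTS12 replicate 2, 12 are, a pattern that upscaling by 1.32 and 1.44 followed by truncation would give. Raw counts of the other 4 libraries were not recovered, and no count model was fitted.

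Values were analysed as log2(value + 1), which understates changes of low genes. Genes with a mean of at least 10 were kept, 15637 of 60669. limma 3.58.1 in R 4.3.3 was fitted with group as the only term (trended prior variance, 2-sided, threshold 0.05), and tested on simulated data. Tables and plots were made in Python 3.11.15 with numpy 2.4.6, pandas 2.3.3, scipy 1.17.1 and matplotlib 3.10.9. The complex, the gene lists and the tests were chosen with earlier results of these data known. Named were all subunits, from each list the 3 called genes with the smallest adjusted p, genes beside or overlapping the subunits (some are not reported here), and the 5 most like EMC10; ADRB1, DNAJC3, FDFT1, SOAT1 and some marker genes were named besides, after their values were seen. The 3' UTR of 1 coding transcript per gene (APPRIS rank, basic set, then length; at least 30 bases) was searched on the transcribed strand.

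Deviations of same-numbered libraries from their group means correlated at 0.367, 0.135 and 0.133 across genes (different numbers, -0.193 to 0.0632), so a paired fit (replicate block) was also made. Alternatives changed the pseudocount, filter, scaling, prior, pairing and libraries.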

Additional observations from a re-analysis of the deposited data

How the results depend on the processing

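EMC1 fell and the other 8 tested subunits stayed uncalled in all 14 alternative fits. The log2 fold change of EMC10 was 1.88 after division by column sums and 1.72 to 1.79 with 1 library left out, and the rise of its ratio to the median of the other subunits, 3.56-fold, was 3.4 to 3.74. Uncalled values changed sign in 9 cases. After division by column sums EMC2, EMC3, EMC4 and MMGT1 were at 0.016, 0.085, 0.108 and 0.050. After quantile normalization EMC3 and EMC4 were at 0.007 and 0.044, and with 1 library left out EMC4 ran from -0.033 to 0.005, EMC6 from -0.031 to 0.204 and EMC7 from -0.008 to 0.052. The replicate block left every EMC call as it was (EMC9 at -0.13, limma adjusted p = 0.209). With the block, 6 genes of glycosylation and signal peptidase and 1 client gene fell, and it changed no other count by over 1.5 times. Over all genes tested, 2423 rose and 3059 fell with the block.

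Division by column sums gave 3873 rises and 1543 falls over all genes, 1 rise and 5 falls in the SRP and Sec61 list, 4 rises in the GET list, 0 falls in the multipass list, 2 rises and 1 fall in the glycosylation and peptidase list, and 2 rises in the degradation list. Quantile normalization gave 1 rise in the SRP and Sec61 list, 1 fall in the multipass list, 1 rise and 1 fall in the glycosylation and peptidase list and 2 rises in the degradation list. Without the filter on low values, 1 GET gene rose and 1 multipass gene fell. Without the intensity trend, 0 GET, degradation and client genes rose and 1 multipass gene fell. With 1 library left out, 0 to 2 GET genes rose, 0 to 2 multipass genes fell, and 0 to 1 degradation and client genes rose. The causes were not tested. By siCTL level per length, EMC10 ranked 9, or 10 with the chosen transcript and 6 with the median coding transcript, a length added after seeing the data. Other subunits moved too, such as MMGT1 at 5, 8 and 10. The truncated values limit precision most in low genes such as GET4.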

Other observations

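Several subunits deviated alike in libraries with the same replicate number, most closely EMC9 and EMC1, which were singled out after their values were seen. From its group mean on the log2 scale, EMC9 deviated by 0.227, -0.064 and -0.163 in siCTL replicates 1, 2 and 3 and by 0.234, -0.061 and -0.173 in the siADAMTS12 replicates. EMC1 deviated by 0.065, 0.018 and -0.084 and by 0.066, 0.021 and -0.087. MMGT1 deviated by 0.082, -0.073 and -0.009 and by 0.099, -0.056 and -0.043, and EMC4 by 0.044, -0.033 and -0.011 and by 0.023, -0.028 and 0.005. EMC8, the paralogue of EMC9, deviated in opposite directions, at -0.062, 0.133 and -0.071 and then at 0.084, -0.242 and 0.158. So did EMC6, at -0.18, 0.29 and -0.11 and then at 0.041, -0.077 and 0.037. EMC2 was at 0.06, -0.113 and 0.053 and then at 0.027, 0.102 and -0.129. EMC3 was at 0.035, -0.076 and 0.041 and then at 0.083, -0.038 and -0.045. EMC7 was at 0.016, -0.006 and -0.01 and then at 0.047, 0.026 and -0.073. The share of all genes that deviated alike was not counted. EMC10 deviated by 0.017, 0.061 and -0.078 and by -0.033, 0.071 and -0.039.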
